A study of Mus musculus with 2 samples.

Results

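Fatty acid and lipid metabolism of the mouse liver at embryonic day 12.5 was followed through 48 genes, chosen as a list of symbols and all found in the gene tables among 43346 mouse genes. They cover fatty acid synthesis (4 genes), desaturation (4), elongation (4), activation to acyl-CoA (4), carnitine-dependent entry into mitochondria (4), mitochondrial β-oxidation with its electron carriers (13), peroxisomal β-oxidation (4), ketone body metabolism (1), uptake and binding (4), triglyceride storage (4) and lipoprotein handling (2). Total RNA was sequenced in 2 libraries of healthy, mixed-sex B6NCrl embryos, with no treatment or genotype named in the labels. Replicate 1 pooled the livers of 120 embryos and replicate 2 those of 88, so a value belongs to a pool and says nothing of the spread between embryos. The libraries form 1 group, so levels, ratios within a library and differences between the pools are described without a test.

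Fatty acids are built in the cytosol from citrate, which ATP citrate lyase cleaves to acetyl-CoA; acetyl-CoA carboxylase makes malonyl-CoA from it and fatty acid synthase joins the units into palmitate. Elongases and desaturases of the endoplasmic reticulum turn palmitate and dietary fatty acids into longer and unsaturated ones. For oxidation, a fatty acid is joined to coenzyme A, passed to carnitine by carnitine palmitoyltransferase 1 at the outer mitochondrial membrane, carried inside and shortened step by step, with electrons passed on by the electron transfer flavoprotein. Malonyl-CoA inhibits carnitine palmitoyltransferase 1, which sets synthesis against oxidation. The adult liver also makes ketone bodies from the acetyl-CoA, and it stores or exports triglyceride in droplets and lipoproteins.

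The libraries held 37.6 M and 34.7 M expected counts, the estimated reads per gene. All 6 hepatoblast markers and all 5 erythroid markers were detected, with summed levels of 7868 and 7713 TPM for the former and 153900 and 157200 TPM for the latter in replicates 1 and 2. TPM is a level scaled for transcript length and for the size of the library. Macrophage (5 of 5), endothelial (4 of 4) and megakaryocyte markers (3 of 3) were detected too, while none of 4 adult hepatocyte markers was. Of the 5 adipocyte markers, Plin1 and Lep had no reads and only Fabp4 was detected, at 14.8 and 13.4 TPM. In whole tissue, fewer cells of a type and less RNA per cell cannot be told apart, and the levels below belong to this mixture of cells. Globins took 25.6% and 26.2% of TPM, which lowers the TPM of every other gene. A level of at least 1 TPM in both libraries was counted as detected.

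Of the 48 protein-coding genes, 46 were detected (95.8%), against 29.6% of all mouse genes in the tables, which include pseudogenes and microRNA genes. The median of mean TPM over the 48 was 35.6 (37.4 in replicate 1 and 35.2 in replicate 2), with a median of 12.7 TPM over the 12841 detected genes. A total of 37 lay above that median. Together they held 3381 and 3351 TPM. Fabp5 alone gave 27.3% of that sum in both libraries. Levels of at least 100 TPM were reached by 8 genes, with 9.77% of all detected genes at such levels. A further 31 lay between 10 and 100 TPM and 7 between 1 and 10 TPM. By step, the medians of mean TPM were highest for desaturation (80.0), uptake and binding (74.2) and mitochondrial oxidation (73.6), and the last 2 of these changed order between the libraries. Bdh1, storage, activation, elongation, lipoproteins, synthesis and peroxisomal oxidation lay between 40.0 and 19.7 TPM. Carnitine entry was lowest at 4.50 TPM. This order belongs to the genes listed and differs for further genes looked up with the same steps. Their medians were 1.02 TPM for desaturation (4 genes) and 1.93 TPM for uptake and binding (6 genes). For mitochondrial oxidation the median was 47.0 TPM (5 genes) and for carnitine entry 22.5 TPM (3 genes).

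**Figure D1:**
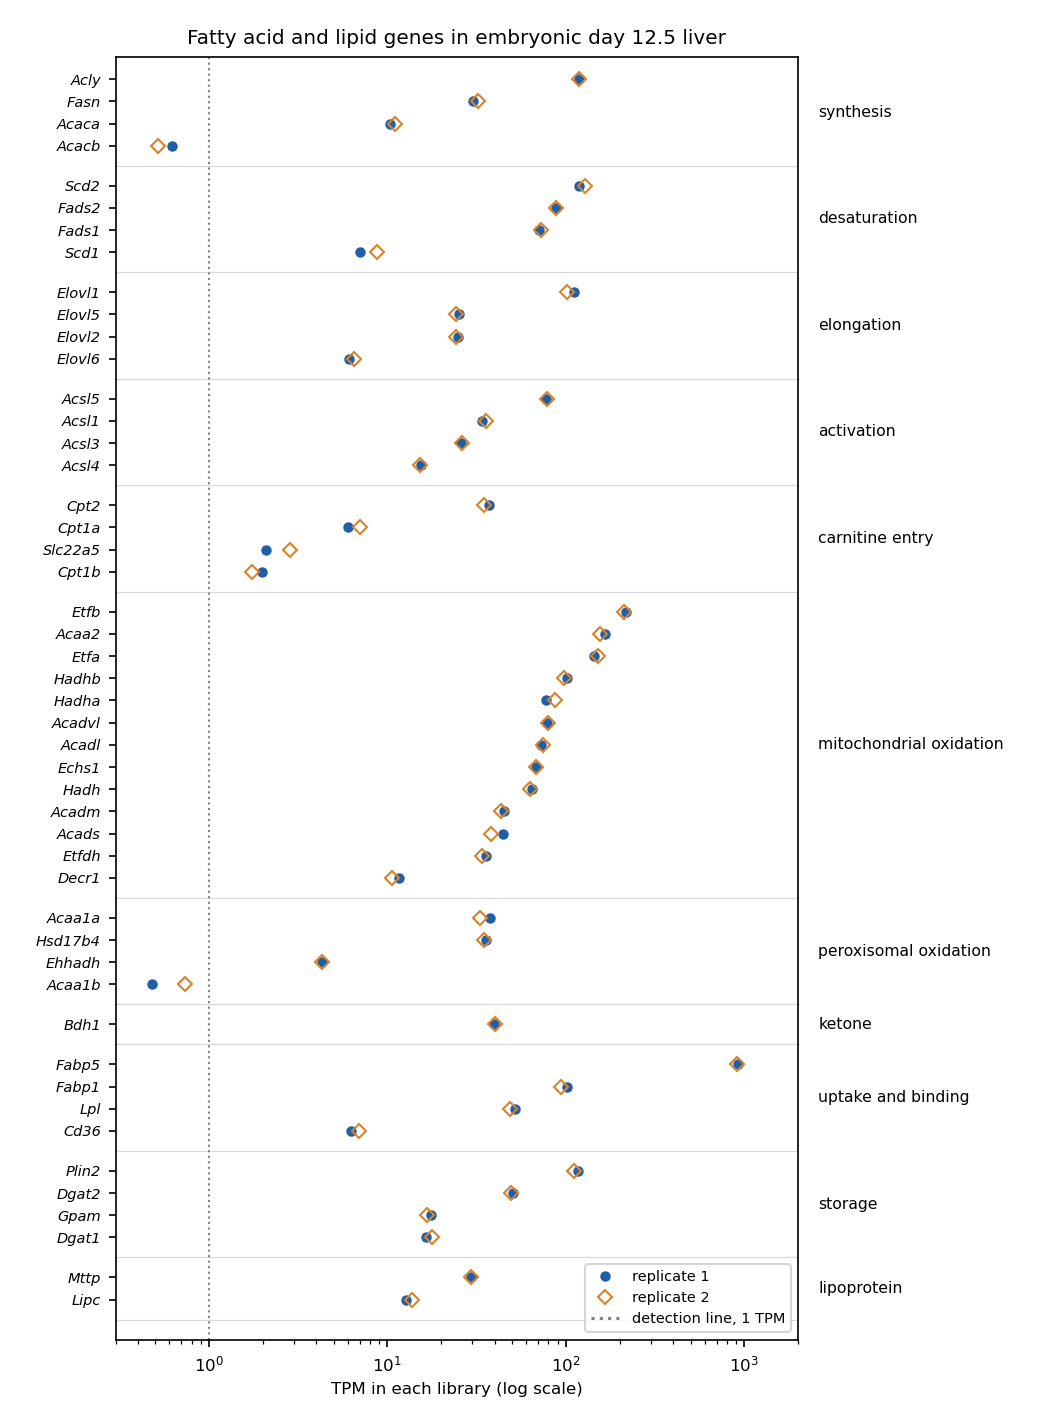
Level of each of the 48 genes in TPM (log axis), grouped by step, with a filled circle for replicate 1, an open diamond for replicate 2 and a dotted line at 1 TPM. Fabp5 stands farthest to the right, at 922 and 915 TPM, Acacb and Acaa1b lie left of the line, and all but 1 carnitine entry gene lie below every gene of mitochondrial oxidation.

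Of the synthesis RNAs, that of ATP citrate lyase was highest and those of the acetyl-CoA carboxylases were lowest. Acly (ENSMUSG00000020917.13; chromosome 11, 100476353 to 100528000) had 117.8 TPM in replicate 1 and 118.4 in replicate 2. Fasn, the fatty acid synthase gene, had 30.2 and 32.1 TPM. Acaca (chromosome 11, 84129672 to 84401651), which encodes the cytosolic carboxylase of lipogenic tissue, had 10.4 and 11.1 TPM. Each of the 3 differed far more from the next than its libraries differed from each other. A coding model of 431 nt held 24.1% and 28.3% of the Acaca TPM but 1.4% and 1.7% of its reads. The Acaca model of 9026 nt had 6.41 TPM in each library. Acacb encodes the isozyme at the mitochondrial surface, whose malonyl-CoA acts on carnitine palmitoyltransferase 1. It stood at 0.62 and 0.52 TPM, from 71 and 54 reads, and was one of the 2 genes not detected. The Acaca to Acacb ratio of TPM was 16.7 in replicate 1 and 21.3 in replicate 2 (19.0 ± 3.24, SD, n = 2), with few reads behind its lower term. Among 7 further genes of the step, 6 were detected. The citrate carrier gene Slc25a1 was highest at 87.0 ± 1.67 TPM and the lipogenesis gene Thrsp, abundant in adult lipogenic tissue, was lowest at 0.03 and 0.12 TPM.

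Of the stearoyl-CoA desaturases, Scd2 RNA far exceeded Scd1 RNA. Stearoyl-CoA desaturases place a double bond in saturated acyl chains, and Scd1 is the main form of adult mouse liver. Scd2 (chromosome 19, 44293674 to 44306864) had 118.4 and 128.3 TPM, and Scd1 (chromosome 19, 44394455 to 44407879) had 7.03 and 8.80 TPM. The ranges did not overlap, and the Scd2 to Scd1 ratio was 16.9 and 14.6 in replicates 1 and 2 (15.7 ± 1.60, SD, n = 2). The genes lie 87.6 kb apart, and both have expected counts that are not whole numbers, which shows that some reads were divided with other genes. The paralogs Scd3 and Scd4 beside them were at or under 0.05 TPM in both libraries. Fads1 and Fads2, which encode the Δ5 and Δ6 desaturases of polyunsaturated fatty acids, lay close together in level. Fads1 had 70.6 and 72.5 TPM and Fads2 had 88.3 and 88.6 TPM, so Fads2 was above Fads1 in both libraries on this scale per length.

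Elongation was led by Elovl1, whose enzyme extends saturated and monounsaturated very long chains. Elovl1 had 110.9 and 101.3 TPM. Elovl6, which extends palmitate to stearate, was the lowest elongase of the 4 at 6.13 and 6.47 TPM. The Elovl1 to Elovl6 ratio was 16.9 ± 1.72 (SD, n = 2). Elovl2 and Elovl5, the elongases of polyunsaturated chains, could not be ordered: Elovl2 had 24.8 and 24.3 TPM and Elovl5 25.1 and 24.3 TPM, and their ratio fell on both sides of 1. Among further genes of the step, those of enzymes that complete each elongation round had more RNA than most elongase genes. Only Tecr of these also exceeded Elovl1. Tecr, which encodes the final reductase, had 284.4 ± 4.14 TPM, the highest of 78 further pathway genes that were looked up, while the elongase gene Elovl3 was lowest in the step at 0.02 and 0 TPM. The median over those 78 was 9.09 TPM, and 63 passed the detection line.

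All 4 long-chain acyl-CoA synthetases were detected. Acsl5 was highest at 77.7 and 78.4 TPM, followed by Acsl1, the main form of adult liver and fat, at 34.1 and 35.6 TPM. Acsl3, a synthetase of the endoplasmic reticulum and lipid droplets, had 25.8 and 26.1 TPM. Acsl4, which prefers arachidonic acid, was last at 15.5 and 15.3 TPM. The order Acsl5, Acsl1, Acsl3, Acsl4 was the same in both libraries with no overlap between neighbours. Of 4 further activating genes, all detected, Slc27a2 was highest at 48.0 ± 2.11 TPM and Acsl6 lowest at 1.33 ± 0.269 TPM.

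The carnitine steps were uneven. Slc22a5, the plasma membrane carnitine transporter gene, had 2.10 and 2.84 TPM. Cpt1a (chromosome 19, 3322334 to 3385733), the liver form of carnitine palmitoyltransferase 1 and the regulated gate of β-oxidation, had 6.01 and 7.04 TPM from 795 and 862 reads. Cpt1b, the muscle form, had 1.98 and 1.74 TPM. Cpt1a exceeded Cpt1b by 3.04 times in replicate 1 and 4.05 times in replicate 2. Cpt2, whose enzyme returns the acyl group to coenzyme A inside the mitochondrion, stood well apart at 37.2 and 34.8 TPM. Of the striated muscle markers, 3 of 6 were detected, their summed level was 30.2 and 44.4 TPM, and their part in the Cpt1b level was not tested. Myl7 had 19.5 and 18.9 TPM, Actc1 7.98 and 17.7, Tnnt2 1.33 and 2.90 and Myog 0.93 and 4.25, while Myh6 and Ckm lay at or under 0.37 TPM. Actc1, Tnnt2 and Myog were thus higher in replicate 2, while Myl7 was nearly level. Cpt1b rested on 174 and 142 reads in replicates 1 and 2. The exact Clopper-Pearson interval of its ratio, replicate 1 over replicate 2, was 0.906 to 1.43 and included equal levels. No direction between the pools was therefore read from Cpt1b. Among 3 further genes of the step, all detected, Crat, the carnitine acetyltransferase gene, was highest at 23.4 ± 1.65 TPM and the brain form Cpt1c lowest at 2.72 ± 0.141 TPM.

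Mitochondrial β-oxidation was detected through all 13 of its genes, between 11.2 and 214.4 TPM, and 12 of the 13 lay above the median of detected genes. Each of the 13 exceeded Cpt1a in both libraries. The median level of the 13 was 72.6 and 74.7 TPM, which was 3.58 and 3.46 times the median of the 4 synthesis genes in replicates 1 and 2 and 17.9 and 15.1 times the median of the 4 carnitine entry genes. TPM compares RNA per length, and neither ratio measures flux or enzyme amount. Both ratios depend on which genes were listed. The median of 3 further carnitine entry genes was 22.5 TPM, and that of 5 further genes looked up with mitochondrial oxidation was 47.0 TPM. Without the undetected Acacb, the synthesis median was 31.1 TPM. Counted as reads without correction for length, the oxidation median was 0.786 of the synthesis median. The mean transcript length in replicate 1 was 3758 to 9240 nt in the synthesis genes and 865 to 2759 nt in the oxidation genes.

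The first dehydrogenation is made by acyl-CoA dehydrogenases that divide the substrates by chain length. Acadvl, the very long-chain form, had 78.1 and 79.3 TPM, and Acadl, the long-chain form, had 72.6 and 74.7 TPM. The medium-chain Acadm had 45.3 and 43.5 TPM and the short-chain Acads 44.3 and 38.1 TPM. Both long-chain forms thus lay above both shorter-chain forms in each library, and Acadm and Acads overlapped. The subsequent hydration and oxidation of short chains are encoded by Echs1, at 68.1 and 67.7 TPM, and Hadh, at 64.6 and 63.1 TPM. Acaa2, the mitochondrial thiolase gene that completes the cycle, was higher at 166.9 and 156.2 TPM. Decr1, the 2,4-dienoyl-CoA reductase gene needed for polyunsaturated chains, was the lowest of the 13 at 11.7 and 10.7 TPM.

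Among the genes of electron transfer, only Etfb exceeded the thiolase gene Acaa2. Etfb, the β subunit of the electron transfer flavoprotein, had 216.8 and 211.9 TPM and its partner Etfa, the α subunit, 143.1 and 152.1 TPM. The Etfa to Etfb ratio was 0.660 and 0.718, below 1 in both libraries. The protein itself holds 1 copy of each subunit. Etfdh, the oxidoreductase that passes the electrons on to ubiquinone, had 35.8 and 34.0 TPM. Among 5 further mitochondrial genes looked up with the step, all detected, Hsd17b10 was highest at 87.6 ± 1.58 TPM. Acsf3, which encodes a mitochondrial acyl-CoA synthetase and no enzyme of the β-oxidation cycle, was lowest at 9.21 ± 0.290 TPM.

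Hadha and Hadhb encode the α and β subunits of the mitochondrial trifunctional protein, which handles long chains after the first dehydrogenation. They are transcribed away from each other on chromosome 5, Hadha on the minus strand (30118304 to 30155162) and Hadhb on the plus strand (30155248 to 30184593), with 85 bases between the annotated genes. The RefSeq start sites, on GRCm38.p6, lie 273 bases apart. The windows from 250 bases before to 50 bases after each start therefore share 228 bases, and they are shown because, by the RefSeq starts, one stretch of DNA lies between the starts of both subunit genes. The annotated Hadha gene reaches further, to 30155162, so that much of the shared stretch (30155003 to 30155230) lies inside it by the GENCODE M21 annotation. Capitals mark the shared stretch, which the windows read on opposite strands (chr5:30154931-30155230, minus strand, and chr5:30155003-30155302, plus strand).
Hadha: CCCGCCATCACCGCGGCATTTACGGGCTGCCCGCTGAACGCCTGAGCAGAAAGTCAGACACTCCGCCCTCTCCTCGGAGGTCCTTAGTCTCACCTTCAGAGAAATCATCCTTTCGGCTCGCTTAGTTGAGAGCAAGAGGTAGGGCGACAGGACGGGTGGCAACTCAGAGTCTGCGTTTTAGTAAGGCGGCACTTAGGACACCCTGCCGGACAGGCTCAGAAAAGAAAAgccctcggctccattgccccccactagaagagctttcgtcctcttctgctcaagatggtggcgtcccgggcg
Hadhb: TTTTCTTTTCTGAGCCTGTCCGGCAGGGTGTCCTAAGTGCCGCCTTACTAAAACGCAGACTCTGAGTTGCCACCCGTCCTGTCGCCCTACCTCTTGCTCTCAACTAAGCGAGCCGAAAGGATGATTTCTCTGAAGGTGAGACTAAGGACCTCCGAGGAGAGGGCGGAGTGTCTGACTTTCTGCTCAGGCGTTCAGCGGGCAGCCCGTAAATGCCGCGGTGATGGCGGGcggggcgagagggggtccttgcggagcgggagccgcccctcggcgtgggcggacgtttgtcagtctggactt
Hadha RNA was at 77.3 and 87.1 TPM and Hadhb RNA at 101.5 and 98.2 TPM. Hadha was lower than Hadhb in both libraries, with a ratio of 0.761 and 0.887 (0.824 ± 0.0893, SD, n = 2). A noncoding model of 323 nt held 20.8% and 25.0% of the Hadha TPM, and with transcripts annotated as coding only the ratio was 0.148.

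Peroxisomes shorten very long and branched chains with their own enzymes. Acaa1a, a peroxisomal thiolase gene, had 37.6 and 33.0 TPM, and Hsd17b4, the D-bifunctional protein gene, 35.5 and 34.8 TPM. Ehhadh, the L-bifunctional protein gene, was lower at 4.30 and 4.28 TPM, and the Hsd17b4 to Ehhadh ratio was 8.20 ± 0.0884 (SD, n = 2). Acaa1b, a second thiolase gene 183 kb from Acaa1a, was not detected at 0.48 and 0.74 TPM. Expected counts of Acaa1a and Acaa1b were not whole numbers, so the division of reads between these near-identical copies is uncertain, and the reads behind Acaa1b were 24.0 and 34.2. Of 9 further peroxisomal genes, all detected, Scp2, which encodes a sterol carrier and thiolase, was highest at 188.9 ± 0.799 TPM and Acox2, a branched-chain and bile acid intermediate oxidase gene, lowest at 2.72 ± 0.339 TPM.

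Bdh1, the mitochondrial dehydrogenase that interconverts acetoacetate and 3-hydroxybutyrate, had 39.7 and 40.3 TPM. The thiolase gene Acat1 had 42.6 and 41.6 TPM. Oxct1 encodes the transferase with which other tissues use ketone bodies and which adult hepatocytes are known to lack. It had 35.4 and 37.8 TPM in this mixed tissue, below Bdh1 in both libraries. The cytosolic Bdh2 was not detected at 0.41 and 0.53 TPM.

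Uptake and binding held both the most abundant gene of the set and one of the less abundant. Fabp5 (chromosome 3, 10012548 to 10016607), the fatty acid-binding protein first known from epidermis, had 922.4 and 914.7 TPM from 26522 and 24373 reads. Fabp1 (chromosome 6, 71199827 to 71205023), the liver form, had 102.1 and 94.4 TPM from 1459 and 1249 reads. Fabp1 thus stood at 0.107 ± 0.00528 of Fabp5 (SD, n = 2). Hepatoblast, macrophage, endothelial and erythroid markers were all detected in these livers, and which cells held the Fabp5 RNA was not tested. Lpl, the lipase that frees fatty acids from circulating triglyceride, had 51.7 and 48.7 TPM. Cd36, the scavenger receptor that takes up long-chain fatty acids, had 6.28 and 6.98 TPM. Of 6 further genes of the step 4 were detected, Fabp4, an adipocyte and macrophage form, highest at 14.8 and 13.4 TPM and Fabp3, the heart form, lowest at 0.82 and 0.99 TPM.

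Promoter windows were matched for 37 of the 48 genes in the RefSeq table (GRCm38.p6). The letters AGGTCA, a half-site of nuclear receptors such as PPAR, HNF4 and LXR proteins, were found on either strand in 13 of the 37 (35.1%), with 18.1% of 27025 genes holding them in a window of the same length. The letters CCAAT were found in 54.1% of the 37 and 41.1% of all. Every motif was searched on both strands, and none contains another. The E-box CACGTG was found in 5.4% and 8.1%, the sterol regulatory element TCACNCCAC in 5.4% and 1.4%, the erythroid GATA letters AGATAA in 10.8% and 12.7% and TATAAA in 5.4% and 15.7%. These are matches of letters in short windows, and binding to them was not tested. The window of Fabp1 (chr6:71199629-71199928, plus strand) is shown because it holds the letters of the half-site in more than one place near the start of the gene of the liver-type carrier, with matches in capitals, read here as TGACCT from the opposite strand.
Fabp1: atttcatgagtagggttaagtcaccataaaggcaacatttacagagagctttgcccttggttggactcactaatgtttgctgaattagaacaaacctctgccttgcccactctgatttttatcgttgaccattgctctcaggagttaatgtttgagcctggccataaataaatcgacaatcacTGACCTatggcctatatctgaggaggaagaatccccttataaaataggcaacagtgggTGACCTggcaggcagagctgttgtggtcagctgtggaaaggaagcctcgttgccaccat
The matches begin 67 and 9 bases before the RefSeq start at 71199879, and TATAAA begins 30 bases before it. The GENCODE M21 gene starts earlier, at 71199827, so that the match nearer the RefSeq start and TATAAA lie inside the gene by that annotation.

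Storage genes were all detected. Gpam, the mitochondrial acyltransferase that opens glycerolipid synthesis, had 17.5 and 16.7 TPM. The final acyl transfer to triglyceride is made by unrelated enzymes of Dgat1, at 16.4 and 17.7 TPM, and Dgat2, at 50.9 and 49.5 TPM. Dgat1 was at 0.323 and 0.358 of Dgat2. Plin2, the lipid droplet coat of liver, was highest at 117.4 and 111.7 TPM. Of 13 further storage genes 8 were detected, led by the droplet coat gene Plin3 at 37.4 ± 0.467 TPM, and the adipocyte coat gene Plin1 had no reads in either library. For lipoproteins, Mttp, which loads triglyceride onto apolipoprotein B, had 29.3 TPM in both libraries and Lipc, the hepatic lipase gene, had 12.8 and 13.7 TPM. Lpl exceeded Lipc by 4.05 and 3.56 times. Apob, the apolipoprotein B gene, was highest of 3 further genes at 58.2 ± 2.69 TPM and the endothelial lipase gene Lipg lowest at 0.21 and 0.22 TPM, and 2 of the 3 were detected. Among 13 regulators, 12 were detected. Srebf2, which encodes the activator of sterol synthesis genes, was highest at 51.6 ± 0.905 TPM, and Pparg, which encodes the adipocyte regulator, lowest at 1.19 and 0.98 TPM.

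**Figure D2:**
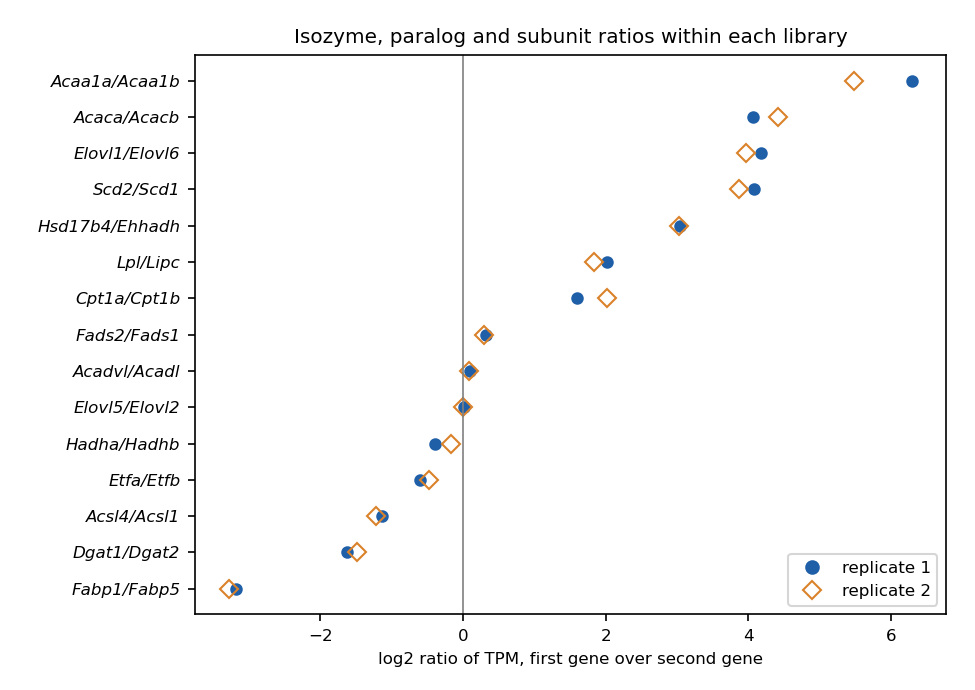
Ratios of TPM for 15 pairs of isozymes, paralogs, subunits or lipases within each library (log2 axis, line at equal levels), with a filled circle for replicate 1 and an open diamond for replicate 2. Both libraries fall on the same side of the line for each pair except Elovl5/Elovl2, and the libraries lie farthest apart for Acaa1a/Acaa1b, at ratios of 78.3 and 44.6.

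Of the 15 pairs, 14 kept their direction in both libraries. The 4 largest ratios were Acaa1a to Acaa1b at 61.4 ± 23.8, Acaca to Acacb, Elovl1 to Elovl6 and Scd2 to Scd1. In the first and second of these the lower gene was under the detection line, so few reads carried the spread. By gene TPM, the subunit pairs Hadha/Hadhb (0.824) and Etfa/Etfb (0.689) were not the closest to equal levels. Elovl5/Elovl2 (1.006) and Acadvl/Acadl (1.069) lay closer than both. Acadvl exceeded Acadl by only 1.08 and 1.06 times. The Fads2 to Fads1 ratio was 1.24 ± 0.0198 (SD, n = 2).

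Some of these ratios turn on how the RNA was counted. As plain reads, with no correction for length, Fads2 stood at 0.519 of Fads1 and Etfa at 1.14 times Etfb, both in the opposite direction to TPM. With only the transcripts annotated as coding, Acadvl stood at 0.870 of Acadl, and the largest model left out, a retained-intron transcript of Acadvl, held 14.5% and 15.8% of its TPM. The same restriction gave 0.148 for Hadha to Hadhb, the pair that lay at 0.824 by gene TPM, and it gave 45.1 for Acaca to Acacb, 0.177 for Dgat1 to Dgat2 and 1.52 for Lpl to Lipc. The direction of Scd2 over Scd1, Elovl1 over Elovl6, Cpt1a over Cpt1b, Hsd17b4 over Ehhadh and Fabp5 over Fabp1 was the same by TPM, by reads and with coding transcripts only.

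The pools differed little in these genes. A difference was counted where TPM, after adding 0.1, was at least 25% higher in one library and the mean expected count was at least 50, which applied to 47 of the 48. By this rule 1 of the 47 (2.13%) differed, with a background of 8.68% over 13017 genes. That gene was Slc22a5, 1.35 times higher in replicate 2 (exact 95% Clopper-Pearson interval 1.11 to 1.64), from 196 and 232 reads. Its coding model had 2.10 and 2.65 TPM in replicates 1 and 2. A model of 737 nt annotated for nonsense-mediated decay added 0.20 TPM in replicate 2, from 3.64 reads, and 0 in replicate 1. The rule was not applied to the coding model alone, and the gene's expected counts were not whole numbers. Scd1 fell just short of the rule, also higher in replicate 2, with a log2 ratio of -0.32 and an interval of 1.15 to 1.36 times. Acaa1b, under the count minimum, differed 1.54-fold with an interval of 0.885 to 2.70. The intervals cover counting error only, and for 16 of the 47 they left out equal levels. No such count over all genes stands beside these 16. Of the 47, 25 were higher and 22 lower in replicate 1, with 6780 higher and 6163 lower among the 13017 genes. Scaled to the spike-ins instead, 42 were higher and 5 lower, where the median log2 ratio of all genes moved to 0.121. The called gene was then Acads, with a background of 11.3%. A total of 38 of the 47 (80.9%) lay within 1.1-fold, with 67.8% of all genes tested. A total of 38 of the 48 also had more than 1000 reads in both libraries, and the part of depth in this share was not tested.

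**Figure D3:**
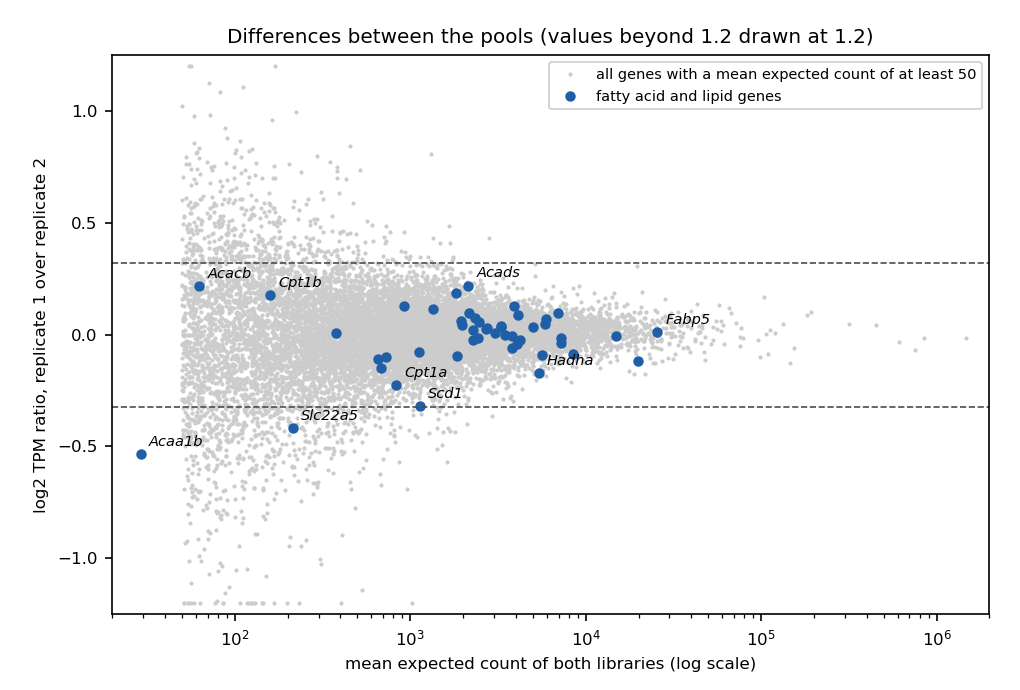
Log2 ratio of TPM, replicate 1 over replicate 2 (with 0.1 added), against the mean expected count (log axis) for 13017 genes in grey and the fatty acid and lipid genes in blue, with dashed lines where one library is 25% higher. Slc22a5 lies beyond the lower line, Scd1 at it, and Acaa1b to the left of the count minimum.

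In 31 of the 46 detected genes the leading transcript held at least 90% of the gene's TPM as a mean of both libraries. These include 13 genes with 1 model in the tables, where the share could not be lower. Of the 33 genes with several models, 18 reached 90%. The remaining genes included Acly, divided between Acly-207 (54.6% and 52.2% of its TPM in replicates 1 and 2) and Acly-203 (40.9% and 41.7%). The rule for naming transcripts selected 4 detected genes, Hadha, Lpl, Cd36 and Elovl1.

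In Hadha the leading model was Hadha-201, with 57.5% and 57.2% of the gene's TPM, annotated in GENCODE M21 as a processed transcript with 20 exons and no coding sequence. The coding model Hadha-205, also of 20 exons and with a coding sequence of 2289 nt, held 19.4% and 16.0%. A further noncoding model of 323 nt, Hadha-204, held 20.8% and 25.0% of TPM but 2.1% and 2.7% of the gene's reads, since TPM divides reads by length. Its TPM was 16.0 in replicate 1 and 21.8 in replicate 2, and the gene's Hadha level above includes it. With coding models only, the Hadha to Hadhb ratio was 0.148 in place of 0.824. The type of these models in the annotation the authors used was not given in the sources used here.

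In Lpl the leading model, Lpl-203, is annotated for nonsense-mediated decay and held 60.2% and 58.6% of TPM, while the coding Lpl-201 held 39.2% and 40.8%. Both have the same coding sequence of 1422 nt and differ in their ends on chromosome 8. The last exon of Lpl-201 runs from 68904506 to 68906934 (2429 nt). In Lpl-203 an exon from the same start ends at 68904567 and is joined to a last exon from 68907233 to 68907448. By expected counts Lpl-201 led, with 58.9% and 60.5% of the reads, so the leader depends on the correction for length. It was the only detected gene whose leader differed between both measures in each library.

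Cd36 was the only detected gene whose leading model differed between the pools. Cd36-203 held 47.9% in replicate 1 and 16.6% in replicate 2, Cd36-204 held 18.2% and 49.9%, and Cd36-201 was level at 33.9% and 33.5%. All 3 are annotated as coding, and 678 and 686 reads stood behind the gene. The models are 3399 to 3566 nt long, and the division of reads among them is an estimate without an interval. In Elovl1 no model held as much as 50%. Elovl1-207 led with 37.2% and 37.4%, followed by Elovl1-203 (26.5% and 23.6%) and Elovl1-201 (19.0% and 22.1%), all coding and in the same order in both pools. Acacb, which was not detected, was split among models that rested on too few reads to be ordered.

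**Figure D4:**
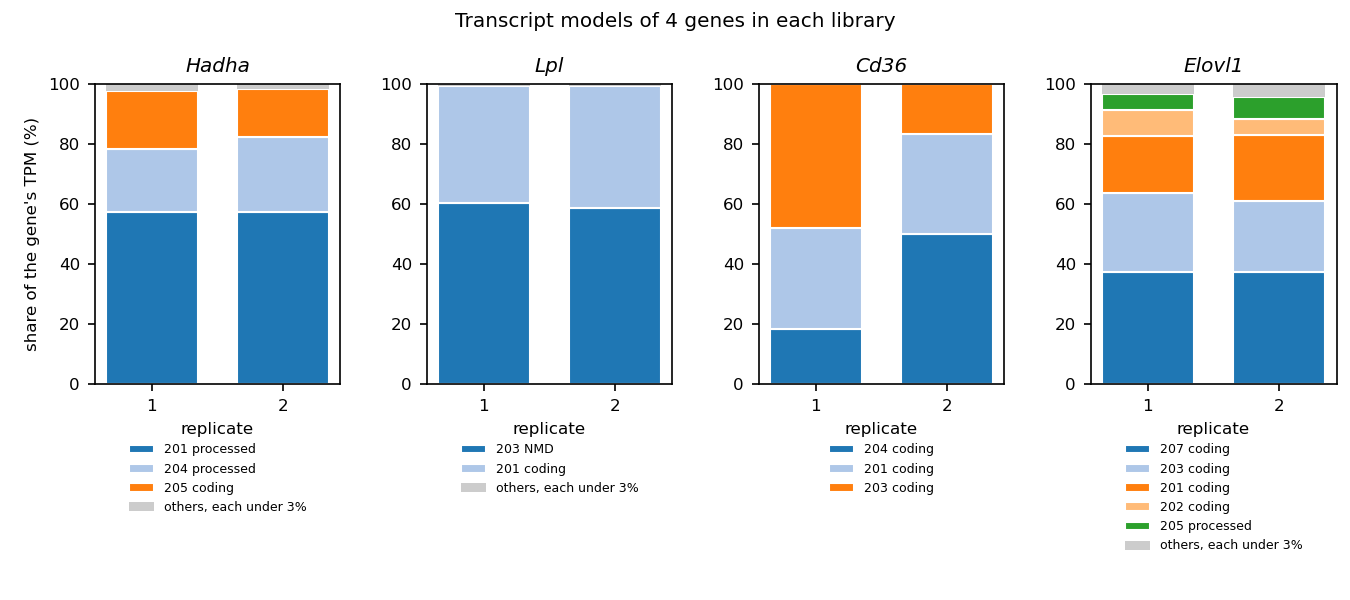
Share of each gene's TPM (%) held by its transcript models in replicates 1 and 2 for Hadha, Lpl, Cd36 and Elovl1, stacked to 100%, with the M21 annotation type in the key. The leading model keeps its share in Hadha, Lpl and Elovl1, and in Cd36 the estimated shares of models 203 and 204 change places.

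The 48 genes were spread over 15 chromosomes, with 7 on chromosome 19 and 6 on chromosome 3. On chromosome 19, Fads1 and Fads2 lie 81.1 kb apart and Scd1 and Scd2 lie 87.6 kb apart. The labels give no strandedness, and 18 of the 48 overlap a gene of the opposite strand. For 7 of them that gene had at least 100 reads in both libraries: Elovl1, Acsl5, Acadvl, Echs1, Etfdh, Acaa1a and Mttp. Reads of Elovl1 and of Cdc20, which overlaps it by 53 bases and had 10608 and 9722 reads, cannot be told apart within the overlap. Expected counts were not whole numbers (beyond 0.01 reads) in 13 of the 48, Fabp5 and Plin2 among them, which marks reads shared with other genes.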

How the data were processed

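Total RNA of embryonic day 12.5 liver was quantified by the authors on mm10 with GENCODE M4, per the file headers; the aligner and quantifier: not given in the sources used here. Per the labels, RNA was extracted with Ambion mirVana, libraries started from 10 ng with a size range above 200, and spike-ins were added. The deposited expected counts are estimated, unnormalized reads per gene or transcript. The deposited TPM values are scaled by length to a fixed total that includes the spike-ins. FPKM values, also deposited, are scaled by length and depth. The authors' percent column gives each transcript's share of its gene, and shares were recomputed here from transcript TPM.

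Genes were matched by identifier to GENCODE M21 (same assembly), which also gave transcript types and 1-based coordinates; M4 and M21 models can differ in length. The genes, steps and further lists were chosen with earlier results of these data known. Every member was described. Of other pathway genes, the highest and lowest of each step and the ketone genes were named, except for some that are not reported here. Transcripts were named where the leader held under 50%, was not annotated as coding or differed between libraries. With 1 group no test was made. Ratio intervals are exact Clopper-Pearson intervals at 95% from rounded expected counts. Reads amplified by PCR without molecular identifiers are no independent molecules, so intervals and floors cover counting error only. A floor of 3 reads equals 0.0953 and 0.103 TPM at 1 kb. Alternatives used edgeR 4.0.16 TMM and DESeq2 1.42.0 size factors on rounded expected counts, FPKM, rescaled TPM, other thresholds and each library alone. Scripts (Python 3.11.15, R 4.3.3) were tested on simulated data.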

Additional observations from a re-analysis of the deposited data

How the results depend on the processing

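The count of detected genes was between 43 and 48 at thresholds of 5 and 0.5 TPM or 10 expected counts, and 46 in each library alone. Medians scale with the unit. Rescaled without globins, spike-ins and other entries, they were 51.8 TPM over all 48 genes, 30.5 for synthesis, 116.4 for desaturation, 35.8 for elongation, 44.2 for activation, 6.55 for carnitine entry, 107.1 for mitochondrial oxidation, 28.7 for peroxisomal oxidation, 58.1 for Bdh1, 108.0 for uptake and binding, 48.9 for storage and 31.0 for lipoproteins. In FPKM the same medians were 29.9, 17.5, 67.1, 20.6, 25.5, 3.77, 61.7, 16.5, 33.5, 62.2, 28.2 and 17.8. Over detected genes only they were 37.95 TPM in all, 31.1 for synthesis and 35.2 for peroxisomal oxidation. With each library alone the median over all was 35.2 to 37.4, for peroxisomal oxidation 18.6 to 19.9 and for storage 33.6 to 34.2 TPM.

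Ratios of expected counts carry no correction for length. They were 29.8 for Acaca/Acacb, 17.8 for Scd2/Scd1, 0.733 for Elovl5/Elovl2, 3.51 for Elovl1/Elovl6, 0.603 for Acsl4/Acsl1, 5.32 for Cpt1a/Cpt1b, 1.04 for Acadvl/Acadl, 0.926 for Hadha/Hadhb, 7.19 for Hsd17b4/Ehhadh, 0.0531 for Fabp1/Fabp5, 0.2001 for Dgat1/Dgat2 and 5.63 for Lpl/Lipc. The direction turned for Fads2/Fads1 (0.519), Etfa/Etfb (1.14) and the median of mitochondrial oxidation over synthesis (0.786). With transcripts annotated as coding only, Acaca/Acacb was 45.1, Hadha/Hadhb 0.148, Hsd17b4/Ehhadh 8.10, Dgat1/Dgat2 0.177, Lpl/Lipc 1.52 and oxidation over synthesis 3.22, and Acadvl/Acadl turned to 0.870.

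Genes differing between the pools numbered 9 of 47 at 1.1-fold, where 32.2% of all genes tested differed, and 0 at 1.5-fold, where 2.04% did. With a pseudocount of 1 they numbered 0 (4.16% of all genes). They numbered 2 of 48 with no count minimum (31.6% of all genes) or a minimum of 10 (16.8%). With DESeq2 size factors they numbered 2 of 47 (7.07% of all genes). No paired analysis was possible because the libraries form 1 group.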
